A study of Danio rerio with 15 samples.

Results

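Transcript levels in whole zebrafish embryos exposed to a 4:2 fluorotelomer sulfonic acid (42FTS) were compared with those in control embryos. The 6 libraries, 3 from exposed and 3 from control embryos, were chosen by their group names out of 15 libraries in 5 groups, and all 15 entered the fit. Every library held messenger RNA of 10 pooled whole embryos of the Tropical 5D line, a wild-type laboratory strain, and the labels name no transgene or mutation in any group. Exposed embryos received 47 uM 42FTS from 8 to 48 hours post fertilization (hpf), control embryos received 0 uM, and both were dechorionated and kept in 0.5% methanol. The other groups, each with 3 libraries, received 47 uM perfluorobutane sulfonic acid (PFBS), perfluoropentanoic acid (PFPeA) or perfluorobutane sulfonamide (FBSA) over the same time. Whether pools of 1 group came from different clutches is not stated in the labels; p-values therefore cover only the spread among these pools, which may be technical. In bulk RNA of whole embryos, fewer cells of a type and less RNA per cell cannot be told apart.

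Per- and polyfluoroalkyl substances (PFAS) are persistent surfactants, and fluorotelomer sulfonic acids are known from fire-fighting foams. In mammals, long-chain PFAS are known to activate PPAR receptors, which control fatty acid oxidation, to bind fatty acid carriers and transthyretin, which carries thyroid hormone, and to be moved by organic anion transporters. At the sampled stage the zebrafish embryo has a beating heart, working skeletal muscle, a pigmented eye with a lens, circulating red cells and innate immune cells, and feeds from its yolk. Gene lists for these pathways and tissues were therefore read alongside the test over all genes.

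The 6 libraries held 24249287 to 32630731 reads counted in genes. 42FTS 2 and Control 3 had the lowest totals. Unaligned reads made up 9.94% of 42FTS 2 and 9.92% of Control 3, and at most 6.73% of each of the other 13 libraries. Of 36 markers of 12 tissues of the embryo, such as the muscle actin gene acta1b and the hatching enzyme gene he1a, 33 stood at 1 CPM (counts scaled to a common library size) or more in each of the 6 libraries. The exceptions were mylpfa of muscle, mpeg1.1 of macrophages and lyz of neutrophils, whose lowest libraries had 0.518, 0.183 and 0.551 CPM. Levels are given as CPM scaled by the trimmed mean of M-values (TMM), with libraries in the order 1, 2 and 3. PFBS levels and raw reads are in the order PFBS 2, a and b, since 2 PFBS columns carry no number of their own.

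42FTS-exposed embryos differed from control embryos about as much as pools of one group differed from each other. Over 18803 genes with a mean of at least 1 CPM, the median absolute log2 difference between a 42FTS library and a control library was 0.151 to 0.182 in the 9 pairs. Between libraries of 42FTS it was 0.158 to 0.171, and between controls 0.149 to 0.175. No gene passed the test: edgeR's quasi-likelihood test with Benjamini-Hochberg adjustment called 0 of 23874 genes (0%) at an adjusted p under 0.05. The smallest adjusted p in edgeR was 0.523. At an unadjusted p under 0.05 edgeR counted 972 genes (4.07%), of which 474 were higher and 498 lower in 42FTS. DESeq2 called 14 of 25838 genes (0.0542%), 5 higher and 9 lower.

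**Figure D1:**
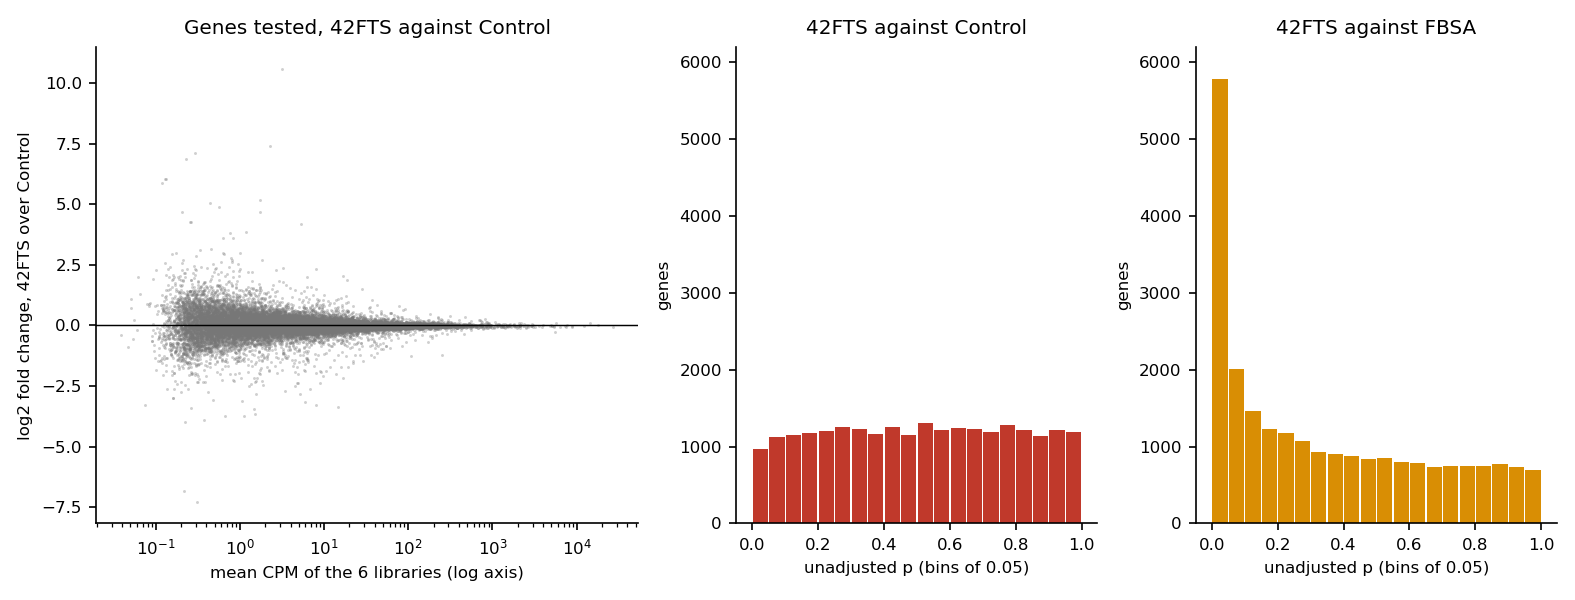
Left, the log2 fold change of 42FTS over Control for each of 23874 genes tested, against the mean CPM of the 6 libraries on a log axis. Middle and right, numbers of genes by unadjusted edgeR p in bins of 0.05: the lowest bin held 972 genes for 42FTS against Control and 5780 for 42FTS against FBSA.

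The precision of a fold change from 3 pools against 3 depended on the level of the gene. The median 95% confidence interval (CI) of a log2 fold change, from the edgeR fit, reached 0.44 to either side over all genes. Among the 9688 genes with a mean of at least 10 CPM it reached 0.20, and for 9365 of them (96.7%) the whole interval lay between -1 and 1, which is within 2-fold. Among the 5071 genes with a mean under 1 CPM it reached 1.25. Over all genes 16314 (68.3%) had an interval between -1 and 1. Each CI covers 1 gene without adjustment for the number tested, so its width is not the difference that could be called. The gene nccrp1, at 2.33 (CI 1.28 to 3.39), was not called, with an adjusted p of 0.997 in edgeR. The fold changes centred near 0, with a median of -0.0064 and quartiles of -0.12 and 0.13 on the log2 scale.

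Since edgeR called no gene, the 12 genes in each direction with its smallest unadjusted p are given as values and not as changes. Each averaged 1 CPM or more, and its 3 exposed libraries lay all above or all below the 3 controls. That separation alone held for 1101 genes higher (4.61%) and 1229 genes lower (5.15%) in 42FTS over all genes tested. Of these 24 genes DESeq2 called nccrp1 and cnot1_1 higher and rbfox1l_1, insig1_1, ces2, fam168b_2 and trim13_1 lower. On the higher side, nccrp1, named after a receptor of fish cytotoxic cells, had 16.9, 15.2 and 8.36 CPM in 42FTS, against 2.33, 2.32 and 3.41 CPM in the controls. Every exposed library was above every control, and the log2 fold change was 2.33 (SE 0.48, adjusted p 0.997 in edgeR). In DESeq2 the log2 fold change of nccrp1 was 2.34 (adjusted p 9.61e-05) and that of cnot1_1 0.58 (adjusted p 0.00629). The spread of nccrp1 over the other groups was wide, with 3.05, 8.43 and 11.8 CPM in the PFBS libraries, 3.00, 2.31 and 2.25 CPM in PFPeA and 6.70, 13.6 and 5.52 CPM in FBSA. Every FBSA library was above every control, and edgeR called nccrp1 for FBSA over Control, at 1.69 (adjusted p 0.0463).

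Signalling and membrane genes were among the rest of the higher side. nfkb1, a subunit of the inflammatory transcription factor NF-kappa-B, had 2.56, 2.81 and 1.54 CPM in 42FTS, against 1.19, 0.762 and 0.522 CPM in the controls. rbp7a, of the cellular retinol-binding protein family, had 3.06, 5.26 and 1.11 CPM in 42FTS, against 0.214, 0.487 and 0.763 CPM in the controls. cavin1a, which coats the membrane pits called caveolae, had 2.68, 2.69 and 1.84 CPM in 42FTS, against 1.32, 1.097 and 0.482 CPM in the controls. In each of these the lowest exposed library lay above the highest control, and the log2 fold changes of nfkb1, rbp7a and cavin1a were 1.46 (SE 0.38), 2.70 (SE 0.71) and 1.296 (SE 0.32). gpr39, a zinc-sensing receptor, had 10.23, 9.07 and 10.17 CPM in 42FTS, against 7.01, 7.40 and 6.10 CPM in the controls. dennd5a, an activator of Rab proteins in vesicle traffic, had 14.3, 10.96 and 10.6 CPM in 42FTS, against 8.72, 7.19 and 5.38 CPM in the controls. These 2 genes differed less, at log2 fold changes of 0.52 and 0.75. The other 6 were cnot1_1, whose stem encodes the scaffold of a complex that shortens poly(A) tails, kctd6b_2, of a ubiquitin ligase adaptor, atn1, which encodes an atrophin corepressor, agk, a lipid kinase of mitochondria, smtnl_1, and eif3ea, a subunit of a translation initiation factor. Their log2 fold changes ran from 0.41 for eif3ea to 1.25 for smtnl_1.

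On the lower side, insig1_1 was the entry of a lipid gene. Its stem insig1 encodes the endoplasmic reticulum protein that holds back activation of the sterol regulator SREBP when sterols are plentiful. insig1_1 had 1.31, 1.53 and 1.198 CPM in 42FTS, against 4.13, 7.16 and 11.7 CPM in the controls. The exposed libraries lay close together and below every control, while the controls were spread widely, and the log2 fold change was -2.51 (SE 0.44, adjusted p 0.574 in edgeR and 9.61e-05 in DESeq2). Raw reads of insig1_1 numbered 44, 38 and 39 in 42FTS, 33, 34 and 57 in PFBS, 78, 32 and 113 in PFPeA and 22, 39 and 36 in FBSA, against 135, 235 and 292 in Control 1, 2 and 3. The libraries of all 4 exposed groups were thus below the controls, which the groups share. The log2 difference of 42FTS in insig1_1 was 0.07 (CI -0.88 to 1.02) from PFBS, -0.81 (CI -1.74 to 0.12) from PFPeA and 0.40 (CI -0.565 to 1.37) from FBSA. For FBSA over Control edgeR called insig1_1, at -2.91 (adjusted p 0.00138).

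The smallest unadjusted p of all belonged to rbfox1l_1, whose stem encodes a splicing regulator of muscle. It had 12.3, 15.13 and 17.5 CPM in 42FTS, against 32.5, 21.9 and 28.0 CPM in the controls, a log2 fold change of -0.87 (SE 0.15, adjusted p 0.523 in edgeR and 0.000135 in DESeq2). The other exposed groups ran from 15.6 CPM in FBSA 3 to 21.5 CPM in PFBS 2, below every control. For FBSA over Control edgeR called rbfox1l_1, at -0.68 (adjusted p 0.00834). The log2 difference of 42FTS was -0.44 (CI -0.74 to -0.13) from PFBS, -0.41 (CI -0.72 to -0.10) from PFPeA and -0.19 (CI -0.50 to 0.12) from FBSA. The carboxylesterase gene ces2, of a family that splits esters of drugs and lipids, had 158, 153 and 161 CPM in 42FTS, against 242, 240.3 and 185 CPM in the controls, a log2 fold change of -0.50 (SE 0.09, adjusted p 0.597 in edgeR and 0.00197 in DESeq2). Both rbfox1l_1 and ces2 were below every control in each 42FTS library. fam168b_2 had 1.61, 1.28 and 1.66 CPM in 42FTS, against 14.9, 14.6 and 14.5 CPM in the controls, with little spread in either group. Its log2 fold change was -3.26 (SE 0.67, adjusted p 0.997 in edgeR and 0.00197 in DESeq2), and a fit of the 2 groups alone gave an adjusted p of 9.4e-05 in edgeR. Its raw reads were 54, 32 and 54 in 42FTS, against 486, 478 and 362 in the controls, and 50, 56 and 128 in PFBS, 339, 36 and 147 in PFPeA and 70, 208 and 152 in FBSA. The other exposed groups ran from 1.14 CPM in PFPeA 2, below the 42FTS libraries, to 10.47 CPM in PFPeA 1, below the controls. trim13_1, whose stem encodes a ubiquitin ligase of the endoplasmic reticulum, had 1.01, 0.562 and 1.32 CPM in 42FTS, against 2.08, 2.71 and 3.17 CPM in the controls. Its exposed libraries lay below all controls and its log2 fold change was -1.44 (SE 0.30, adjusted p 0.899 in edgeR and 0.0234 in DESeq2).

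Several genes of the lower side have no other entry under their name. cyp27a7, of the mitochondrial cytochrome P450 family of sterol hydroxylases, had 4.85, 6.02 and 5.44 CPM in 42FTS, against 6.76, 9.63 and 8.79 CPM in the controls. uqcc1, an assembly factor of respiratory complex III, had 34.3, 32.6 and 35.3 CPM in 42FTS, against 39.4, 39.7 and 41.0 CPM in the controls. zufsp, a deubiquitinating enzyme, had 6.52, 7.38 and 6.51 CPM in 42FTS, against 8.78, 10.0 and 10.7 CPM in the controls. The groups of cyp27a7, uqcc1 and zufsp stood apart by narrow gaps, with log2 fold changes of -0.63, -0.23 and -0.53. The other 4 on this side were ap1g2_1, of a clathrin adaptor, suv420h1_1, of a histone methyltransferase, pla1a_1, of a phospholipase, and phf12b, of a zinc finger protein, and their log2 fold changes ran from -1.298 for pla1a_1 to -0.32 for ap1g2_1.

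**Figure D2:**
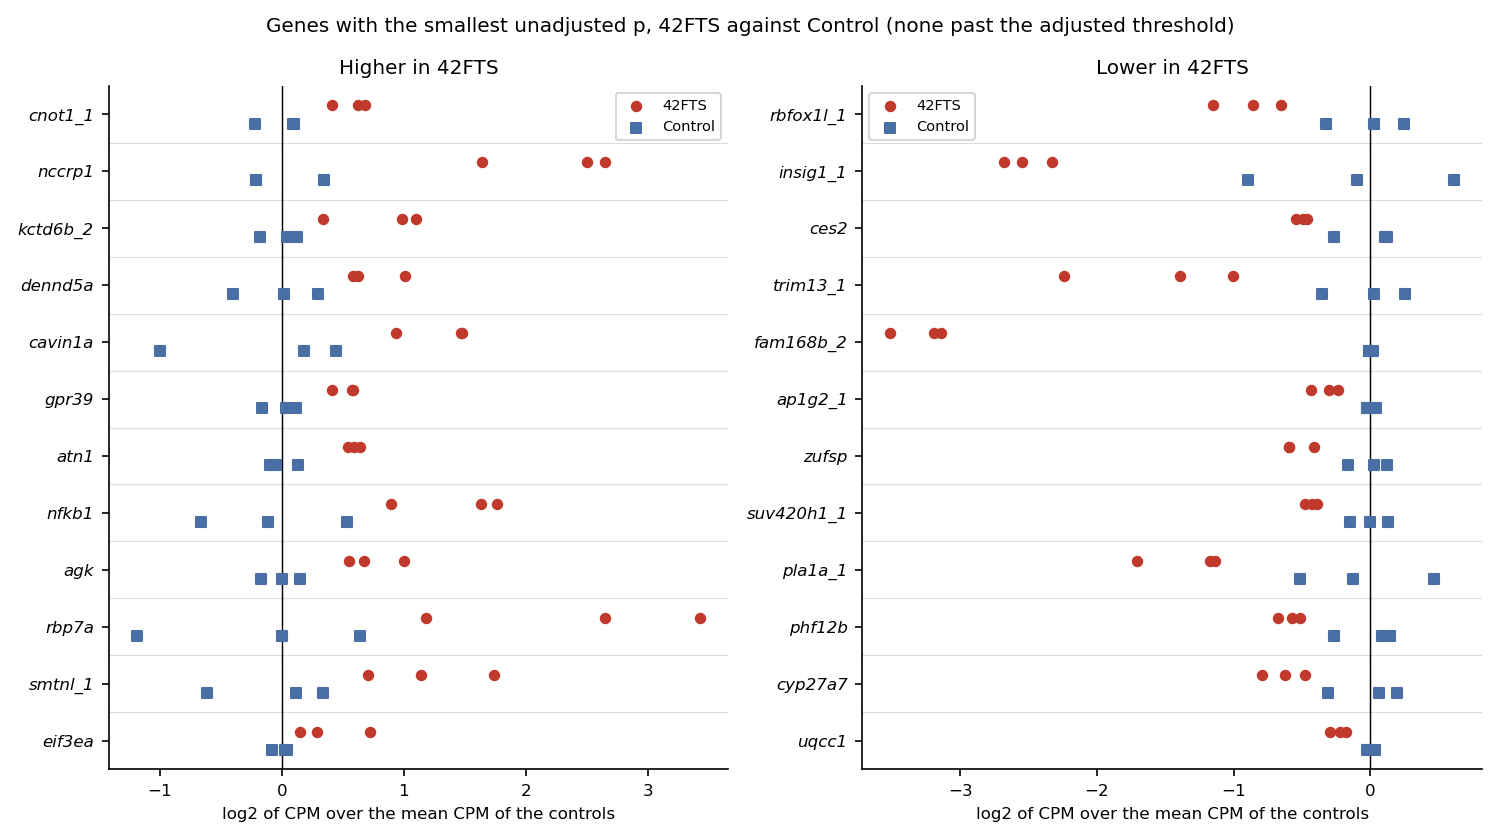
Each line down the plot is 1 of the 24 genes with the smallest unadjusted p, and each point 1 library, as log2 of its CPM over the mean CPM of the controls, for 42FTS and Control. The groups do not overlap for any gene because the rule required it, and fam168b_2, rbp7a, insig1_1 and nccrp1 had the largest fold changes.

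Many of these differences came with an opposite difference in another entry of the same name. The count table lists 47048 entries, and a name can occur several times, as rbfox1l and rbfox1l_1, with no statement in the files of whether these are gene copies or transcript models. Entries with a suffix are therefore uncertain. Of the 24 genes, 16 had another entry of the same stem with reads. That was so for 26.8% of all genes tested and for 38.4% of the 972 with an unadjusted p under 0.05. In 13 of the 16 the other entries held at least 10% of the stem's reads, and in all 13 their mean level differed in the opposite direction to the named entry. How often this held over all tested genes with another entry was not counted. rbfox1l_1 had 415, 377 and 569 reads in 42FTS, against 1063, 719 and 697 in the controls, while rbfox1l had 2716, 1867 and 1994 reads in 42FTS, against 1063, 2472 and 1105 in the controls. ces2 had 5304, 3808 and 5251 reads in 42FTS, against 7903, 7886 and 4619 in the controls, while ces2_1 had 2894, 2790 and 3248 reads in 42FTS, against 1207, 1059 and 2538 in the controls. In both names the entry that was lower in 42FTS stood beside one with more reads there on average, and 42FTS 2 and Control 3 held fewer reads in all. In CPM the exposed and control libraries overlapped for rbfox1l and for ces2_1. ces2_1 had 86.1, 112 and 99.8 CPM in 42FTS, against 36.9, 32.3 and 101.9 CPM in the controls.

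Adding up the entries of each stem before the fit left little of most of these differences. In the 13 stems the other entries held from 28.3% (ces2) to 77.2% (fam168b_2) of the reads. Since the named entries were picked for a small p, a sum with unpicked entries tends to lie nearer to 0 in any case. The sums therefore do not tell whether the single entries differed. The log2 fold change was 0.16 (SE 0.13) for rbfox1l, -0.12 (SE 0.08) for ces2, -0.23 (SE 0.21) for fam168b, 0.11 (SE 0.08) for cnot1 and 0.05 (SE 0.05) for eif3ea. Of the 13 stems, 1 kept an unadjusted p under 0.05 in edgeR, pla1a at a log2 fold change of -0.77 (SE 0.26). The signs of rbfox1l and phf12b turned round, the second to 0.04 (SE 0.11). The 3 stems whose other entries held few reads kept similar values, with 2.33 (SE 0.50) for nccrp1, -2.47 (SE 0.42) for insig1 and -1.36 (SE 0.29) for trim13, and none of these passed edgeR's adjusted threshold either.

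**Figure D3:**
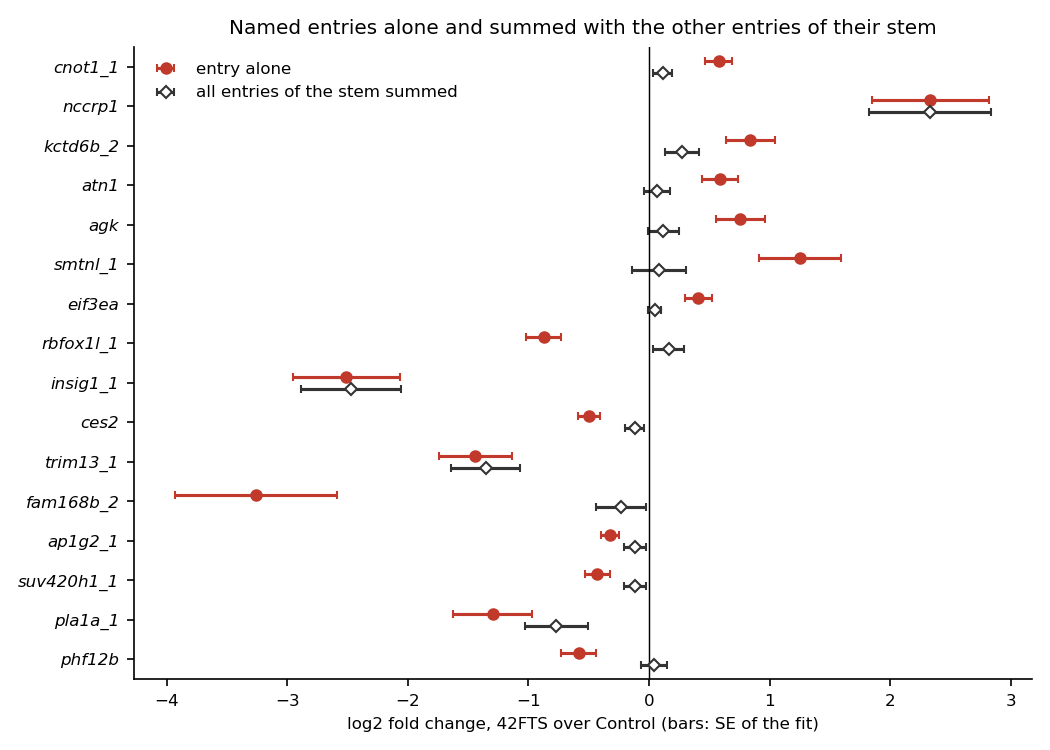
Log2 fold changes of 42FTS over Control with the SE of the edgeR fit for the 16 named genes that have another entry with reads, as the entry alone and with all entries of the stem summed. nccrp1, insig1_1 and trim13_1 keep values near 2.33, -2.51 and -1.44, and the others lie nearer to 0 when summed.

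The call of flna depended on a single control library. flna, which encodes the actin crosslinker filamin A and was looked at after its values were seen, had 43.2, 43.7 and 45.9 CPM in 42FTS, against 17.7, 19.7 and 41.5 CPM in the controls. Control 3, 1 of the libraries with fewer aligned reads, stood beside the exposed libraries and apart from the other controls. With all libraries the log2 fold change was 0.76 (SE 0.26, adjusted p 0.997 in edgeR). Without Control 3 it was 1.24 (SE 0.13, adjusted p 0.00337 in edgeR), and without both 42FTS 2 and Control 3 it was 1.26 (SE 0.14, adjusted p 0.0170 in edgeR). ces2 was called lower without Control 3, at -0.62 (SE 0.08, adjusted p 0.0109 in edgeR). Without Control 1, edgeR called snrpd3_1 higher, at 3.27 (SE 0.31), and gdpd1 lower, at -1.77 (SE 0.23). What Control 1 and Control 3 contribute to these calls beyond that was not tested.

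Lists of pathway and tissue genes were read for the same comparison. The 37 lists held 1671 symbols, of which 53 matched no entry, and 1405 genes were tested. The adjusted threshold of edgeR was passed by 0 of the 1405, and 46 of them (3.27%) had an unadjusted p under 0.05, beside 972 (4.07%) over all genes.

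Of 123 tested genes in the lipid lists, edgeR called 0, and 6 had an unadjusted p under 0.05. The list of PPAR targets and fatty acid oxidation had a median log2 fold change of 0.01 over 48 genes, and 40 of the 48 had a CI between -1 and 1. fabp3, a fatty acid carrier, had 446, 463 and 454 CPM in 42FTS, against 431, 449 and 438 CPM in the controls, a log2 fold change of 0.05 (CI -0.08 to 0.18). The smallest unadjusted p of the list was that of ppargc1a, a coactivator of mitochondrial genes, with 6.75, 6.70 and 5.41 CPM in 42FTS, against 5.41, 4.63 and 3.41 CPM in the controls. Its groups met at the edge, at a log2 fold change of 0.48 (CI 0.01 to 0.95).

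Sterol genes had the lowest median of the 36 lists with a tested member, at -0.17 over 28 genes, beside -0.0064 over all genes tested. The entry insig1_1, given above, was not among the 28. Of the 28, 0 were called, 4 lay below all controls without overlap and 1 above, beside 5.15% below and 4.61% above over all genes tested. The mean over the list of log2 CPM minus the control mean was -0.07, -0.17 and -0.01 in 42FTS, against -0.07, -0.08 and 0.15 in Control 1, 2 and 3. The groups overlapped, and Control 3, with fewer aligned reads, stood above the other controls; the part of that in the median was not tested. srebf2, a regulator of sterol synthesis, had 199, 187 and 196 CPM in 42FTS, against 208, 222 and 242 CPM in the controls. Every exposed library was below every control by a small margin, at a log2 fold change of -0.21 (CI -0.35 to -0.07, adjusted p 0.997 in edgeR). abca1b, of a cholesterol efflux pump, had a log2 fold change of 0.08 (CI -0.05 to 0.20). In fatty acid synthesis, fads2, a desaturase, had 6.87, 6.14 and 7.71 CPM in 42FTS, against 7.50, 9.47 and 12.9 CPM in the controls, with overlapping groups. Among lipoproteins, apobb.1, an apolipoprotein B that carries yolk lipid, had 4598, 4831 and 5066 CPM in 42FTS, against 4621, 5174 and 4954 CPM in the controls, a log2 fold change of -0.03 (CI -0.18 to 0.13). apoa4a, another apolipoprotein, had 18.7, 20.1 and 18.4 CPM in 42FTS, against 21.8, 32.1 and 21.6 CPM in the controls. Its groups stood apart narrowly, at -0.40 (CI -0.79 to -0.02).

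Among 98 tested genes that handle foreign chemicals, edgeR called 0 and 1 had an unadjusted p under 0.05. This was tiparp, a target and repressor of the aryl hydrocarbon receptor, with 18.4, 25.97 and 21.2 CPM in 42FTS, against 27.11, 30.8 and 23.2 CPM in the controls. The groups overlapped, and ahr2, the receptor itself, had a log2 fold change of -0.01 (CI -0.13 to 0.11). The conjugating enzyme gene gstp1 had 349, 379 and 336 CPM in 42FTS, against 363, 371 and 384 CPM in the controls, also with overlap. abcc1, of an efflux pump of organic anions, had 21.5, 26.4 and 23.2 CPM in 42FTS, against 20.7, 20.1 and 20.8 CPM in the controls. Its groups stood apart by a small gap, at a log2 fold change of 0.20 (CI -0.01 to 0.42).

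Stress lists gave 0 calls in edgeR among 201 genes and 8 unadjusted p-values under 0.05. gclc, the rate-limiting enzyme of glutathione synthesis, had 40.6, 42.2 and 41.9 CPM in 42FTS, against 46.3, 46.4 and 49.4 CPM in the controls. All exposed libraries were below all controls by a narrow margin, at a log2 fold change of -0.19 (CI -0.32 to -0.06). The heat shock gene hsp70l had 6.28, 8.75 and 7.25 CPM in 42FTS, against 4.497, 15.6 and 53.2 CPM in the controls, so that the high mean of the controls was largely that of Control 3. rrm2b, a ribonucleotide reductase subunit induced by p53, had 1.96, 7.06 and 2.73 CPM in 42FTS, against 7.40, 17.9 and 18.8 CPM in the controls. Its groups did not overlap, but 42FTS 2 lay close to Control 1. hspa8, a constitutive chaperone, had 383, 330.4 and 273 CPM in 42FTS, against 389.8, 399 and 385 CPM in the controls, and hsp90ab1, another, had 4976, 4927 and 5036 CPM in 42FTS, against 4912, 5103 and 4911 CPM in the controls. The groups of hspa8 did not overlap, and those of hsp90ab1 did, at log2 fold changes of -0.25 (CI -0.53 to 0.03) and 0.00 (CI -0.08 to 0.08). canx and atf4a, of protein folding and its stress response, had log2 fold changes of 0.04 (CI -0.06 to 0.13) and -0.01 (CI -0.14 to 0.11).

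Hormone and patterning lists held 146 tested genes, with 0 called and 7 at an unadjusted p under 0.05 in edgeR. The thyroid list had a median of -0.15 over 21 genes. Within it pax8, a transcription factor of thyroid and kidney, had 34.2, 32.95 and 32.7 CPM in 42FTS, against 36.6, 35.5 and 38.8 CPM in the controls. slco1c1, a thyroid hormone transporter, had 5.21, 6.22 and 5.01 CPM in 42FTS, against 4.56, 4.45 and 3.81 CPM in the controls. Both stood apart narrowly, pax8 below and slco1c1 above the controls, with CIs that included 0. prl, the pituitary hormone prolactin, which regulates ion balance in fish, had 3.600, 5.66 and 4.05 CPM in 42FTS, against 3.61, 3.08 and 2.77 CPM in the controls. Its groups overlapped by a narrow margin, at a log2 fold change of 0.49 (CI 0.10 to 0.87). cry1ba, a cryptochrome of the circadian clock, had 1.07, 2.61 and 1.29 CPM in 42FTS, against 0.581, 0.883 and 0.602 CPM in the controls. hoxb6b, a hox gene, had 0.506, 0.562 and 0.491 CPM in 42FTS, against 2.85, 0.426 and 4.42 CPM in the controls. The exposed libraries of cry1ba lay above all controls, and those of hoxb6b lay above Control 2 but below Control 1 and 3.

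In the inflammation list 1 exposed library stood apart. Its median log2 fold change was 0.24 over 38 genes, the highest of the 36 lists, with 0 called and 3 at an unadjusted p under 0.05 in edgeR. The mean over its members of log2 CPM minus the control mean was 0.79 in 42FTS 2, but -0.03 in 42FTS 1 and 0.03 in 42FTS 3, against -0.13, 0.08 and 0.05 in Control 1, 2 and 3. 42FTS 2 was the highest of the 6 libraries in 24 of the 38 members (63.2%), beside 16.5% of all genes tested. cxcl18b, a chemokine that attracts neutrophils, had 0.863, 28.1 and 1.51 CPM in 42FTS, against 0.367, 0.518 and 0.803 CPM in the controls. mmp9, a matrix-degrading enzyme, had 13.1, 66.1 and 8.88 CPM in 42FTS, against 7.92, 8.74 and 7.35 CPM in the controls. il34, a growth factor of macrophages, had 3.18, 23.6 and 4.27 CPM in 42FTS, against 3.33, 4.14 and 5.30 CPM in the controls. In all of these the exposed mean was set by 42FTS 2, and cxcl18b and il34 were picked after their values were seen.

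Without 42FTS 2 the log2 fold changes were 1.09 in place of 4.18 for cxcl18b, 0.46 in place of 1.86 for mmp9 and -0.19 in place of 1.27 for il34. PFPeA 1 stood apart in the same list, with a mean of 1.32, beside 0.09 and 0.07 in PFPeA 2 and 3. All FBSA libraries were high in it, with means of 0.66, 1.19 and 0.58. Of its 38 members edgeR called 10 lower in 42FTS than in FBSA and 0 higher, beside 5.69% and 4.11% over all genes tested. The list of macrophage and neutrophil markers had means of 0.10, 0.25 and 0.26 in 42FTS, against 0.07, -0.02 and -0.05 in the controls. 42FTS 2 was highest of the 6 libraries in 8 of its 33 members (24.2%). Among its defining markers, mpx, the neutrophil peroxidase, ran from 31.2 to 40.1 CPM over the 6 libraries and mpeg1.1 from 0.183 to 0.492 CPM. lyz, the lysozyme of neutrophils, varied far more, with 0.833, 0.883 and 8.17 CPM in 42FTS, against 0.551, 1.34 and 18.5 CPM in the controls. It was high in 42FTS 3 and Control 3 and low in all the other libraries of these groups, and the groups overlapped. 42FTS 2 was also the exposed library with fewer aligned reads, and the part of that in these values was not tested. nfkb1 of the inflammation list was high in 42FTS 1 too, at 2.56 CPM beside 2.81 CPM in 42FTS 2.

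**Figure D4:**
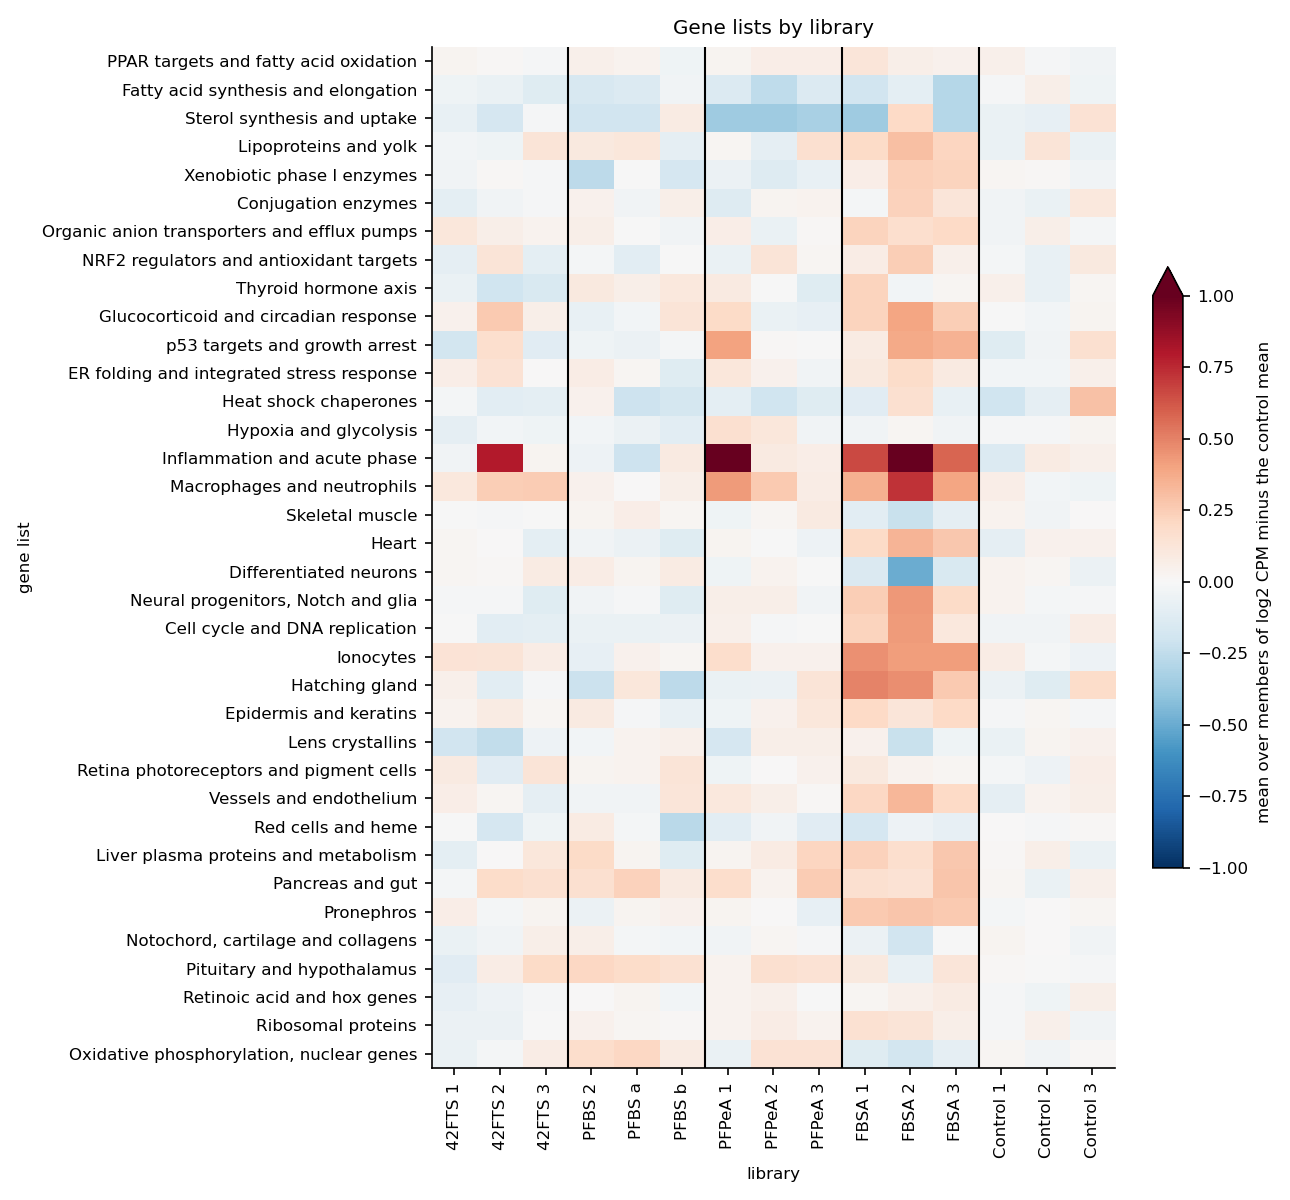
Lines are 36 gene lists, columns the 15 libraries, and colour is the mean over the tested members of log2 CPM minus the control mean, with the scale capped at -1 and 1. The inflammation list reads -0.03, 0.79 and 0.03 in 42FTS 1, 2 and 3, against -0.13, 0.08 and 0.05 in Control 1, 2 and 3.

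Skeletal muscle and heart, 94 genes together, had list medians of -0.01 each and 0 calls in edgeR. atp2a1, the calcium pump of fast muscle, had 18246, 17638 and 18665 CPM in 42FTS, against 17854, 18230 and 18302 CPM in the controls. actc1a, a cardiac actin, had 1094, 1128 and 1136 CPM in 42FTS, against 1018, 1123 and 943 CPM in the controls. Both overlapped between the groups, with log2 fold changes of 0.00 (CI -0.11 to 0.12) and 0.12 (CI -0.04 to 0.29). Of 181 genes of the nervous system and eye 0 were called in edgeR, and 4 (2.21%) had an unadjusted p under 0.05. elavl3, a marker of young neurons, had 1128, 1147 and 1143 CPM in 42FTS, against 1088, 1095 and 1095 CPM in the controls. The groups did not overlap, by a narrow gap, at a log2 fold change of 0.06 (CI -0.03 to 0.15). Lens crystallins had a median of -0.12 over 55 genes, with 6 below all controls and 0 above, beside 5.15% and 4.61% over all genes tested. crygmx, one of them, had 176, 178 and 179 CPM in 42FTS, against 201, 209 and 188 CPM in the controls, a log2 fold change of -0.17 (CI -0.29 to -0.04), and no overlap. It was picked for the smallest p of its list, and its adjusted p was 0.997 in edgeR. crybb1, another crystallin, had 1300, 1322 and 1452 CPM in 42FTS, against 1399, 1562 and 1459 CPM in the controls, with overlap.

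Skin, ionocyte and hatching gland genes gave 0 calls in edgeR among 84, and 5 (5.95%) had an unadjusted p under 0.05, beside 4.07% over all genes tested. krt4, a keratin of the outer skin layer, had 4341, 6141 and 4819 CPM in 42FTS, against 6631, 8417 and 3171 CPM in the controls, a spread that left a CI of -1.11 to 0.61. krt96, another keratin, had 23.4, 25.5 and 24.8 CPM in 42FTS, against 16.2, 21.1 and 20.4 CPM in the controls. Its groups stood apart, at a log2 fold change of 0.35 (CI 0.04 to 0.66). krt96 was picked for the smallest p of its list, and its adjusted p was 0.997 in edgeR. atp1a1a.1, of the sodium pump of ionocytes, had a log2 fold change of 0.01 (CI -0.10 to 0.12), and he1a one of 0.00 (CI -0.20 to 0.20).

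Vessels, blood, liver, gut, kidney and skeleton, 216 genes, had 0 calls in edgeR as well. cdh5, the cadherin of endothelial junctions, had 4.05, 3.53 and 4.55 CPM in 42FTS, against 2.39, 2.89 and 2.25 CPM in the controls. slc20a1a, a phosphate transporter in the kidney list, had 2.32, 1.69 and 1.66 CPM in 42FTS, against 0.581, 0.640 and 1.12 CPM in the controls. The groups of both did not overlap, at log2 fold changes of 0.69 (CI 0.07 to 1.304) and 1.29 (CI 0.39 to 2.18). The embryonic globin gene hbbe1.2 had 159.9, 149 and 158 CPM in 42FTS, against 221, 223 and 180.5 CPM in the controls, without overlap, at -0.42 (CI -0.82 to -0.01). cdh5, slc20a1a and hbbe1.2 were picked for the smallest p of their lists, which favours separated groups. Each had an adjusted p of 0.997 in edgeR. hbae3, another globin, had 2750, 2466 and 2674 CPM in 42FTS, against 2929, 2329 and 2663 CPM in the controls, with overlap. Of 219 genes of the cell cycle, ribosome and respiratory chain 0 were called in edgeR. pcna of replicating cells, rpsa of the ribosome and atp5b of ATP synthase had log2 fold changes of -0.04 (CI -0.14 to 0.07), 0.00 (CI -0.09 to 0.10) and -0.06 (CI -0.18 to 0.06).

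All 4 compounds carry the same fluorinated butyl chain, and 42FTS was compared with each of the others, 3 pairs in all, at the same dose and time. PFBS has its sulfonic acid directly on the chain, where 42FTS has an ethyl spacer between them. PFPeA has a carboxylic acid on the chain and FBSA a sulfonamide. Between 42FTS and PFBS edgeR called 0 of 23874 genes (0%), with 1047 (4.39%) at an unadjusted p under 0.05 and 12 (0.0421%) called by DESeq2. Between 42FTS and PFPeA edgeR called 0 (0%), with 1629 (6.82%) at an unadjusted p under 0.05 and 26 (0.116%) called by DESeq2. The CI of the difference lay between -1 and 1 for 68.7% of genes against PFBS and 67.8% against PFPeA, and for the remaining genes the interval reached past 2-fold in at least 1 direction. nccrp1 was among the DESeq2 calls against PFPeA, at a log2 difference of 2.43 (adjusted p 3.24e-05 in DESeq2). Leaving out PFBS b made mxi1_1 a call in edgeR, and leaving out 42FTS 1, PFPeA 2 or PFPeA 3 made 1 gene each a call against PFPeA, tmx2a, si:dkey-31g6.6 and mrps16_1. In edgeR the log2 difference of nccrp1 was 2.42 (CI 1.36 to 3.47) from PFPeA and 0.80 (CI -0.19 to 1.78) from PFBS.

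Against FBSA, 42FTS differed in 2339 of 23874 genes (9.8%) in edgeR, 981 higher (4.11%) and 1358 lower (5.69%). With p-values adjusted over the 3 pairs together, a choice added after seeing the data, edgeR called 16 genes against PFBS, 29 against PFPeA and 1157 against FBSA. Such a pooled adjustment takes 1 threshold from all pairs, so the many small p-values against FBSA loosen it for the others. Of the 2339 genes, 2186 (93.5%) had a CI for 42FTS over Control between -1 and 1, beside 68.3% of all genes tested. Genes called in the same fit tend to have narrow intervals, so the share over all genes is a low base. Among genes with a mean of at least 10 CPM the share was 96.7%. At least 2-fold between 42FTS and FBSA were 286 of the 2339. For most of the 2339 this bound therefore cannot tell a level near Control from one near FBSA. The median absolute log2 difference of the 2339 genes was 0.45 between 42FTS and FBSA, by which they were chosen, and 0.07 between 42FTS and Control. Both values use the same 42FTS libraries. The count moved with single libraries: it was 1390, 1441 and 1253 without 42FTS 1, 2 and 3, and 999 without FBSA 2.

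The largest differences between 42FTS and FBSA were read in every group for 6 genes in each direction, chosen after their values were seen. slc16a9a, of the monocarboxylate transporter family, had 0.773, 0.562 and 0.676 CPM in 42FTS, against 4.70, 8.04 and 2.87 CPM in FBSA and 0.184, 0.701 and 0.562 CPM in the controls. nppb, a natriuretic peptide of the heart, had 1.34, 1.61 and 1.44 CPM in 42FTS, against 5.71, 9.23 and 8.54 CPM in FBSA and 1.19, 1.68 and 1.85 CPM in the controls. irg1l, a homolog of the mammalian itaconate-making enzyme, had 6.04, 14.6 and 5.099 CPM in 42FTS, against 42.1, 88.3 and 39.8 CPM in FBSA and 6.46, 6.06 and 4.01 CPM in the controls. In these the 42FTS libraries lay below every FBSA library, at log2 differences of -2.94 (CI -3.89 to -1.99), -2.42 (CI -3.31 to -1.53) and -2.74 (CI -3.76 to -1.72). lrrc58a, tcap, of the titin cap protein of muscle, and slc5a1, of a sodium and glucose cotransporter, were the other 3, at -2.53 (CI -3.38 to -1.67), -2.47 (CI -3.92 to -1.02) and -2.47 (CI -3.61 to -1.33).

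On the higher side, igfn1.3, of an immunoglobulin and fibronectin family of muscle, had 26.9, 34.6 and 34.6 CPM in 42FTS, against 3.59, 0.469 and 4.02 CPM in FBSA and 32.6, 29.7 and 24.9 CPM in the controls. aglb, of the glycogen debranching enzyme, had 5.86, 4.495 and 6.97 CPM in 42FTS, against 1.21, 1.13 and 2.90 CPM in FBSA and 6.39, 7.10 and 5.94 CPM in the controls. The log2 differences from FBSA were 3.57 (CI 2.56 to 4.58) and 1.73 (CI 1.04 to 2.41), and for both genes the 42FTS and control libraries overlapped. st6gal1, a sialyltransferase, had 1.16, 1.61 and 1.75 CPM in 42FTS, against 0.603, 0.438 and 0.468 CPM in FBSA and 0.704, 1.13 and 0.763 CPM in the controls. It was the gene of the 12 whose 42FTS libraries did not overlap with the controls, at a log2 fold change of 0.79 over Control (CI 0.01 to 1.58). myhb, a myosin heavy chain, lgals3bpb and tcerg1l were the other 3, at 1.82 (CI 0.91 to 2.73), 1.70 (CI 1.14 to 2.26) and 1.62 (CI 0.97 to 2.27) from FBSA.

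**Figure D5:**
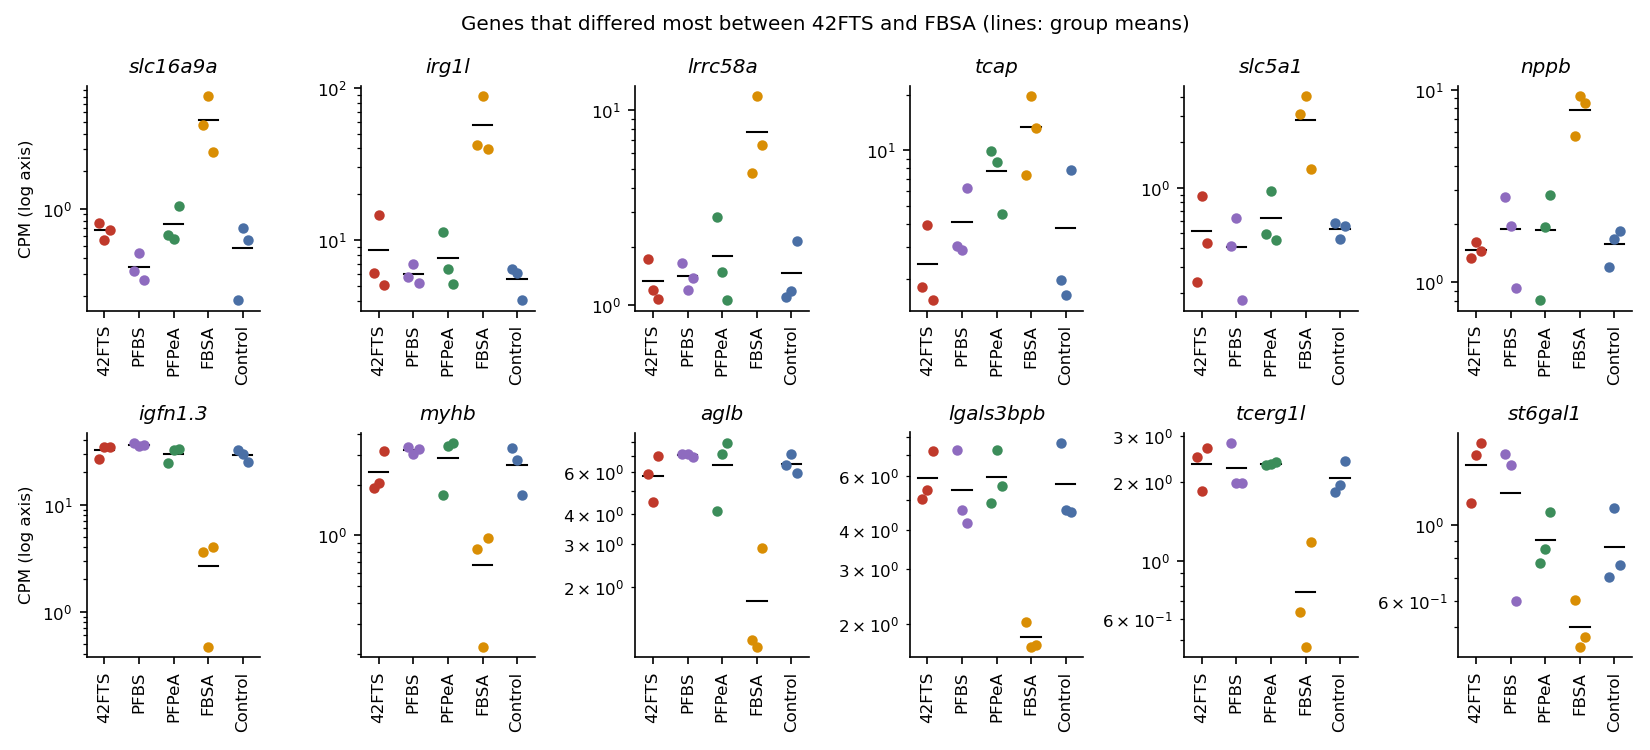
CPM on log axes of the 12 genes with the largest differences between 42FTS and FBSA among genes called, with points for libraries and lines for group means. In igfn1.3 the 42FTS libraries lie at 26.9 to 34.6 CPM, the FBSA libraries at 0.469 to 4.02 CPM and the controls at 24.9 to 32.6 CPM.

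Among lists called in 1 direction only between 42FTS and FBSA, those of the cell cycle, neural progenitors, neurons and ribosomal proteins had the most calls. The 0 calls in the other direction given below follow from that choice. Lists with calls in both directions were left out by it. Of 46 epidermis and keratin genes 15 were lower and 3 higher in 42FTS than in FBSA. Of 66 skeletal muscle genes 7 were lower and 11 higher, and of 46 protein folding genes 11 were lower and 10 higher. Over all genes tested 5.69% were called lower and 4.11% higher in 42FTS than in FBSA. Of 57 cell cycle genes, edgeR called 28 lower in 42FTS than in FBSA and 0 higher, and of 39 genes of neural progenitors and glia 20 lower and 0 higher. Of 52 neuronal genes 19 were higher in 42FTS than in FBSA and 0 lower, and of 78 ribosomal protein genes 18 were lower and 0 higher. The lists of the cell cycle, progenitors, neurons and ribosomal proteins had median log2 fold changes of -0.04, -0.03, -0.02 and -0.02 for 42FTS over Control, with 0 genes called in edgeR.

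The authors' deposited table lists 1909 genes, all with a Q under 0.05 for FBSA, and gives values of 42FTS for each. Genes without such a Q for FBSA are absent, so the authors' calls for 42FTS over all genes cannot be read from it. For 42FTS the authors' deposited table has a Q under 0.05 for 1 of them, cand2, a regulator of cullin ubiquitin ligases known from mammalian muscle, at a log2 fold change of -1.52 and a Q of 6.54e-18. The next by p-value in the authors' deposited table were txnipb, of the thioredoxin-interacting protein, at -0.56 (Q 0.101), tcima at -0.55 (Q 0.139) and gpib, a glycolytic enzyme, at -0.36 (Q 0.25). Estimated counts of cand2 in the authors' deposited table were 147, 86 and 115 in 42FTS, 110, 106 and 435 in PFBS 1, 2 and 3, 436, 117 and 119 in PFPeA and 117, 133 and 245 in FBSA, against 342, 385 and 269 in the controls. All 3 42FTS libraries were below all controls, and 1 PFBS and 1 PFPeA library stood above them.

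The raw count table gave another picture for cand2. Its entry cand2 held 0 reads in 5 of the 6 libraries and 2 reads in Control 2. cand2_1 had 102, 35 and 70 reads in 42FTS, against 51, 138 and 85 in the controls, with overlapping groups and a log2 fold change of -0.47 (SE 0.47). For txnipb the tables gave similar values, with 18.4, 19.1 and 16.7 CPM in 42FTS, against 28.7, 23.6 and 28.2 CPM in the controls, groups that did not overlap and a log2 fold change of -0.57 (SE 0.16, adjusted p 0.997 in edgeR).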

How the data were processed

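Polyadenylated RNA of pools of 10 whole embryos was sequenced on a BGISEQ-500, per the labels' protocols. HISAT2, HTSeq, Bowtie2, RSEM, DESeq2 and the build GRCz11 are named in the submitters' processing notes, with neither versions nor roles, and the sources used here give no strand handling. The deposited count table holds the authors' raw read counts per gene entry, and its lines for reads outside genes were left out of library sizes and tests. In it 1 header name stands over 2 PFBS columns, called PFBS a and b here. The authors' deposited table of comparisons holds log2 fold changes, p-values and Q-values and estimated counts, for genes with a Q under 0.05 for FBSA, and was used as given. Another 45 columns of per-sample or average values were not used.

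The counts were tested with edgeR 4.0.16 in R 4.3.3: TMM scaling, edgeR's expression filter by group, 15 libraries in 5 groups of 3 with group as the only term, robust quasi-likelihood F-tests, two-sided, and Benjamini-Hochberg adjustment over all genes tested within each comparison, at 0.05. CIs are at 95%. DESeq2 1.42.0, another scaling, other filters, a fit of the compared groups alone, a replicate block, a term for the lower-depth libraries, summed entries and each library left out were tried as alternatives. The code was tested on simulated data.

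Named genes were those called or, with none, the 12 in each direction with the smallest unadjusted p, a mean of at least 1 CPM, no clone or locus name and no overlap between groups. From each list the rule took the 2 genes with the highest mean and the one with the smallest p. The comparison, the lists and the markers were chosen with earlier results of these data known. List means use log2 CPM with a prior count of 2. Symbols were matched directly or by RefSeq synonym.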

Additional observations from a re-analysis of the deposited data

How the results depend on the processing

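For 42FTS against Control, 0 genes were called in edgeR, and also with median-of-ratios scaling, without the low-count filter, with a mean of at least 1 CPM, with a term for the lower-depth libraries and with summed entries. A fit of the 2 groups alone called 4, DESeq2 14, and leaving out 42FTS 2 and Control 3 together 1. Against PFBS the fit of 2 groups called 1 and DESeq2 12, and against PFPeA 2 and 26. Against FBSA the 2339 calls became 788 in the fit of 2 groups, 1339 without 42FTS 2 and Control 3, and 3207 in DESeq2. With median-of-ratios scaling 1116 of 2371 calls against FBSA were higher. Adjusting over the 3 compound pairs together, added after seeing the data, gave 16, 29 and 1157 calls against PFBS, PFPeA and FBSA. Leaving out 1 library at a time gave 0 to 2 calls against Control, 0 to 1 against PFBS, 0 to 1 against PFPeA and 999 to 2165 against FBSA. With entries summed, the log2 fold change of rbfox1l_1 became 0.16 and that of phf12b 0.043. The causes were not tested.

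The deviations of 42FTS and Control libraries with number 1, 2 and 3 correlated at 0.028, -0.0015 and 0.039. Between libraries with different numbers the correlations ran from -0.053 to 0.025. All were small, and whether the numbers mark pairs cannot be told from them. With the replicate block, fitted without the PFBS group, 0 genes were called against Control, 0 against PFPeA and 2072 against FBSA. No block could be fitted against PFBS, where 2 columns carry no number of their own. With 3 pools a group and a median CI of 1.25 to either side under 1 CPM, differences of 2-fold were not detectable in many genes of low count. Nor was this limit confined to genes under 1 CPM. nccrp1, with means of 13.5 CPM in 42FTS and 2.68 CPM in the controls, was not called (adjusted p 0.997 in edgeR). insig1_1, with means of 1.34 and 7.67 CPM, was not called either (adjusted p 0.574 in edgeR).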
